A study of Mus musculus with 6 samples.

Results

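The 52 genes described here encode the machinery of the mitotic spindle and of chromosome segregation, among them kinetochore proteins, spindle checkpoint proteins, mitotic kinases, kinesins, cytokinesis factors and condensin subunits. They were named as a list and not chosen by a threshold, and each was read from the probe sets annotated to that gene symbol alone, using the one with the highest mean log2 signal over the 6 arrays. All 52 were measured, out of 18193 genes with a probe set of their own. Gene expression was compared between iLarge T and naïve Large T bone marrow stromal cells (BMSC), with 3 mouse expression arrays in each group. Both groups carry the H-2Kb-tsA58 transgene (Immortomouse, a CBA/ca and C57Bl/10 hybrid), in which the H-2Kb promoter drives large T antigen of SV40 in a temperature-sensitive form, an oncoprotein under which cells go on dividing at 33°C. The iLarge T BMSC were injected into a vein of male C57Bl/6J mice of 6 to 8 weeks, 24 h after a 60 min occlusion of the middle cerebral artery. After 14 days the infarcted hemisphere was digested with collagenase and the cells were grown out at 33°C and passaged 3 times before freezing. Naïve Large T BMSC are the parent cells, also grown at 33°C and passaged 3 times, that had not been in an animal. Each array holds RNA pooled from the cells of 3 hemispheres or from 3 sets of naïve cells, so the spread between arrays is that between pools. The arrays are numbered 2, 4 and 6 for iLarge T and 1, 3 and 5 for naïve BMSC in the labels, and signals, the deposited MAS5 intensities on a linear scale, are given in that order.

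A dividing cell condenses its replicated chromosomes, attaches each sister chromatid to spindle microtubules through a kinetochore, and waits at the spindle checkpoint until every kinetochore is attached. The anaphase-promoting complex then marks securin and cyclin B for destruction, separase cuts cohesin, the sisters are pulled apart, and cytokinesis divides the cytoplasm. Transcripts of many of these proteins accumulate in late S phase, G2 and mitosis, in part through a short promoter element called the cell cycle genes homology region (CHR), which is bound by the MuvB core of the DREAM and B-MYB complexes, often beside a CCAAT box bound by NF-Y.

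Most of the 52 genes carry a CHR close to the start of transcription, a feature that the choice of the 52 did not use. Promoters of 4 members, picked among those that hold a CHR, are shown as examples of it. Each run covers 170 bases before and 30 bases after the start of the RefSeq transcript (build GRCm38.p6), written 5′ to 3′ on the strand of the gene. Capitals mark the CHR letters TTTGAA or TTTAAA on either strand, so that TTCAAA is the same element read from the other strand, and the CCAAT box as CCAAT or ATTGG. Racgap1 lies at chr15:99651627-99651826, minus strand, Anln at chr9:22389177-22389376, minus strand, Kif11 at chr19:37376212-37376411, plus strand and Cenpa at chr5:30666716-30666915, plus strand.
Racgap1: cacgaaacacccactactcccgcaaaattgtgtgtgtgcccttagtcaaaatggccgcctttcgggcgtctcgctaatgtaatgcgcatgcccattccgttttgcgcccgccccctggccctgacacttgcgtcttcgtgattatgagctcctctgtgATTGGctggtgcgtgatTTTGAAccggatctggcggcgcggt
Anln: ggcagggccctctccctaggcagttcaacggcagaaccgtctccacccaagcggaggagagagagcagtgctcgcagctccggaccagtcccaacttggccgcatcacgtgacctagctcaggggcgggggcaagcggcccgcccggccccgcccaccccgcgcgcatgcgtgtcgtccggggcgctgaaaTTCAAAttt
Kif11: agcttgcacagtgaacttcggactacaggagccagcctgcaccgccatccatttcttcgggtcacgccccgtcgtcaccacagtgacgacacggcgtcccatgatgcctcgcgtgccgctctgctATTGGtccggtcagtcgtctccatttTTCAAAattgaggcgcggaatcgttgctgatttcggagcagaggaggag
Cenpa: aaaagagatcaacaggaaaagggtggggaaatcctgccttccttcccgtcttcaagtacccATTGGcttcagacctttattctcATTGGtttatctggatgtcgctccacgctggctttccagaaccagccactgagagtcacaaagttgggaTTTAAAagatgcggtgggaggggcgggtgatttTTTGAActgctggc
In Racgap1 the CHR letters begin at position 5 relative to the start and the CCAAT box at position -12. The Anln run holds a CHR at position 21 and no CCAAT box. Kif11 has both upstream, the CHR at position -19 and the CCAAT box at -45. Cenpa carries 2 CHR matches, the one nearest to the start at position 16, and 2 CCAAT boxes, the first at position -109.

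Of the 52 members, 44 were matched by symbol in the RefSeq promoter table, which spans 250 bases before to 50 bases after the start. Within these 300 bases, 32 of the 44 (72.7%) held a CHR, against 30.6% of the 27025 genes in the table. Within 50 bases of the start the difference was wider, with 29 of 44 (65.9%) among the members and 9.54% of all genes. A CCAAT box was present in 30 of 44 members (68.2%) and in 41.1% of all genes, and both elements in 26 members (59.1%) and in 12.2% of all genes. Matches clustered at the start itself. The 25 bases that follow it held the first base of a CHR in 15 of 44 members (34.1%) and in 2.36% of all genes. Among replication licensing genes, which act earlier in the cell cycle, 3 of 14 promoters held a CHR in the window and 0 of 14 within 50 bases of the start, while a CCAAT box stood in 10 of 14 (71.4%). The median log2 fold change was -2.55 for the 32 with a CHR in the window and -2.61 for the 12 without. These letters are a description of the sequence and no binding was measured.

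**Figure D1:**
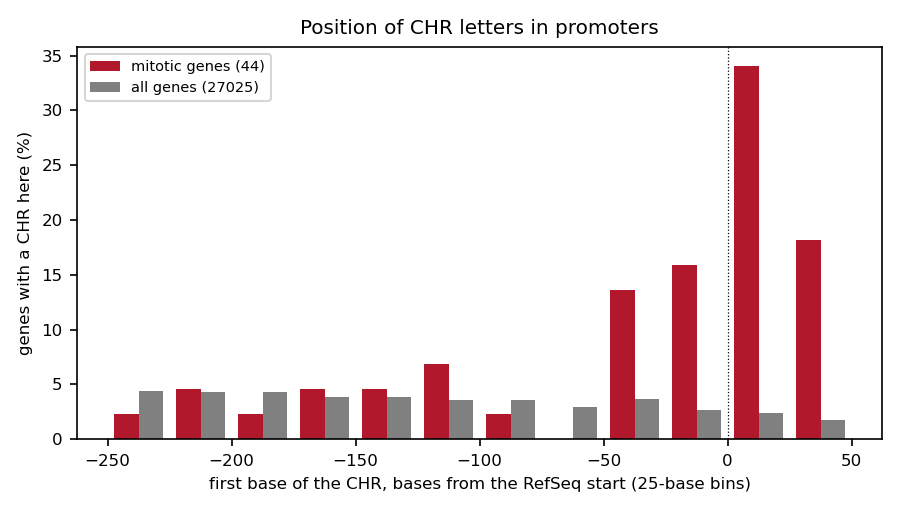
Position of CHR letters in promoters. The horizontal axis gives the first base of each match relative to the RefSeq start in bins of 25 bases, and the vertical axis the percentage of genes with a match there, for 44 mitotic genes and for all 27025 genes in the table. In the bin that follows the start the mitotic genes reach 34.1%, against 2.36% of all genes.

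Signals of the mitotic genes were lower in iLarge T than in naïve BMSC for nearly the whole list. On the log2 scale, limma called 46 of 52 members lower (adjusted p under 0.05 and at least 2-fold) and 0 higher, where 3.26% of all genes were called lower and 3.54% higher. The other 6 (Bub3, Cenpe, Spc25, Kif4, Kif18a and Espl1) were not called. In limma 5 of them had an unadjusted p under 0.05, a cutoff that was not counted over all genes. All 52 log2 fold changes were negative, as were 47.5% of those over all genes. The 3 iLarge T arrays lay below the 3 naïve arrays without overlap for 51 members, against 13.1% of all genes, and the exception was Bub3. The median log2 fold change, iLarge T minus naïve, was -2.56, which is 5.89-fold lower, beside a median of 0.06 over all genes. Single members ranged between -3.90 for Nek2 and -0.35 for Bub3, with a median standard error of 0.42. Errors after ± are standard errors of the log2 fold change from limma (3 arrays a group), and adjusted p-values are those of limma after Benjamini-Hochberg adjustment. For 42 members even the lowest naïve array was at least 2-fold above the highest iLarge T array, a gap that was not counted over all genes. Of the 52 genes, 30 also stand by symbol in the list of lower transcripts that was chosen on these same 6 arrays, so their direction there is not independent evidence. The others do not stand there by symbol, and the share of all genes in that list was not counted. In arrays of whole cultures, fewer cells in mitosis and less RNA per mitotic cell cannot be told apart.

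The call depended on how the spread was estimated. Without the intensity trend in limma, 4 members were called (Nuf2, Kif11, Nusap1 and Racgap1) and 51 had an unadjusted p under 0.05, while 23 had an adjusted p under 0.1. The t-test named in the methods, rerun here on log2 values, called 0 members after Benjamini-Hochberg adjustment (lowest adjusted p = 0.0575), with 49 at an unadjusted p under 0.05. Over all 18193 genes these fits called 48 lower (0.264%) without the trend and 7 lower (0.0385%) by the t-test, against 593 in limma with the trend. Genes at an unadjusted p under 0.05 or an adjusted p under 0.1 were not counted over all 18193. Both fits use the same difference of log2 group means as the main fit, so a direction could not change under them.

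**Figure D2:**
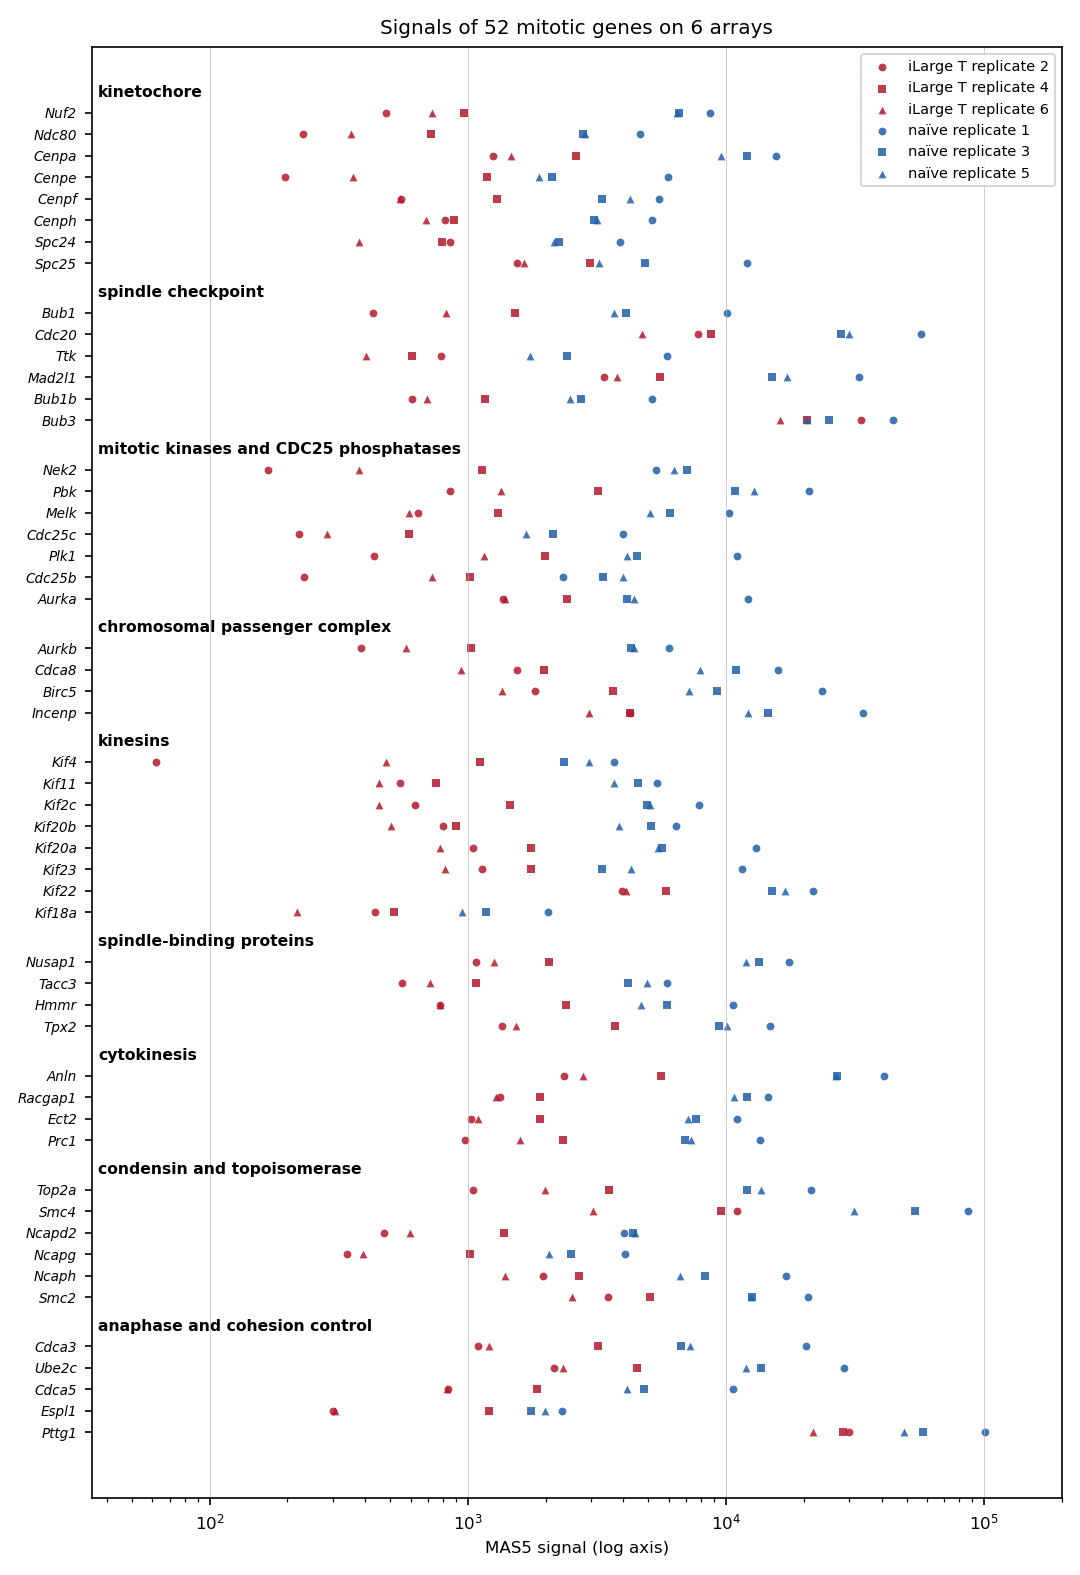
Signals of the 52 mitotic genes on each array. Each row is a gene, grouped by role and ordered by its change, and the horizontal axis is the MAS5 signal on a log scale, with red symbols for the 3 iLarge T arrays and blue symbols for the 3 naïve arrays. The red and blue symbols overlap for Bub3 alone, and naïve replicate 1 is the rightmost symbol for 49 of the 52 genes.

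The arrays within a group were not alike for these genes. iLarge T 4 had the highest signal of its group for 46 of 52 members (88.5%), against 33.4% of all genes, and lay a median of 0.93 log2 units above the mean of the other two. Naïve 1 was the highest naïve array for 49 of 52 (94.2%), against 43.6% of all genes, by a median of 0.84 over naïve 3 and 5. The ratios of the bioC to the bioB hybridization control, which are added to each sample in fixed amounts, were 2.36, 1.09 and 3.21 on the iLarge T arrays and 2.52, 1.08 and 2.91 on the naïve arrays. By this ratio alone, 2 was closest to 1, 4 to 3 and 6 to 5. The cre control read 198480, 138710 and 92463 on the iLarge T arrays and 191002, 106291 and 105311 on the naïve arrays. It did not separate naïve 3 from naïve 5. The labels pair no arrays, and these pairs were chosen after seeing the data. Within these pairs the median log2 difference of the members was -3.43, -1.63 and -2.59. All 52 members were lower in each pair, against 22.5% of all genes. For the 51 members whose groups did not overlap, any pairing of the arrays would give this, so it adds nothing to that count. At least 2-fold lower in each pair were 46 members, against 4.77% of all genes, and the exceptions were Cenpe, Spc25, Bub3, Aurka, Kif23 and Espl1. The number of members called lower was 30 without iLarge T 6 and 31 without iLarge T 2, with medians of -2.42 and -2.34. The share of all genes called lower also fell, to 1.90% without iLarge T 6 and 1.95% without iLarge T 2.

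Markers of other cells differed between the groups and between single arrays. The summed signal of 8 macrophage and microglia markers was 5426, 4263 and 59128 in iLarge T BMSC, against 2324, 10909 and 9369 in naïve BMSC. Most of the sums on naïve 3 and 5 came from Cd68, with 9873 and 8396 there, against 544 on naïve 1. Cd68 read 317, 1329 and 16962 in iLarge T BMSC. It alone of the 8 had a negative log2 fold change (-0.88 ± 1.41). On the iLarge T arrays 5, 4 and 8 of the markers were above the 40th percentile, against 3 on each naïve array. This is the percentile of an array's own signals under which a signal is here taken as near background. Of these 8, Csf1r, a receptor of macrophages, was called higher, with 3716, 1892 and 5673 in iLarge T BMSC, against 883, 330.2 and 339 in naïve BMSC (log2 fold change 2.89 ± 0.54, adjusted p = 0.0151), and its groups did not overlap. The sum of 7 endothelial markers was 6576, 6406 and 45184 in iLarge T BMSC, against 8316, 11075 and 11779 in naïve BMSC. Most of the naïve sum came from Tek, an angiopoietin receptor, which was called lower, with 502, 458 and 1300.3 in iLarge T BMSC, against 5703, 8480.0 and 9080.2 in naïve BMSC (log2 fold change -3.51 ± 0.44, adjusted p = 0.00243). The other 6 had positive log2 fold changes, and Cdh5, the endothelial cadherin, was called higher, with 2211, 2787 and 23797 in iLarge T BMSC, against 209.9, 32 and 27.5 in naïve BMSC (adjusted p = 0.0076), the naïve signals all being under the 40th percentile. On the iLarge T arrays 5, 6 and 7 of the endothelial markers were above that percentile, against 3 on each naïve array. The sum of 7 neural and glial markers was 2679.6, 1456 and 5933 in iLarge T BMSC and 1896, 2289.9 and 1886 in naïve BMSC. Mesothelial markers ran the other way, with sums of 3737 to 4998 in iLarge T and 156579 to 233148 in naïve BMSC over 7 genes, while 9 stromal fibroblast markers were above the 40th percentile on all 6 arrays. Without iLarge T 6 the median log2 fold change of the 52 genes was -2.42, beside -2.56 over all arrays. The part of the other markers in the changes of the mitotic genes was not tested.

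Kinetochores are the protein assemblies that link centromeric chromatin to microtubules. Of 8 kinetochore members, 6 were called lower, 0 higher and 2 were not called, with a median log2 fold change of -2.63. Nuf2, a subunit of the microtubule-binding NDC80 complex, had signals of 484, 969 and 729 in iLarge T BMSC, against 8668, 6558 and 6472 in naïve BMSC (log2 fold change -3.36 ± 0.35, adjusted p = 0.00109). The lowest naïve array was 6.68-fold above the highest iLarge T array, the widest gap of the 52 genes. Cenpa, the histone H3 variant that marks centromeres, read 1252, 2624 and 1464 in iLarge T BMSC, against 15659, 12043 and 9588 in naïve BMSC (log2 fold change -2.85 ± 0.34, adjusted p = 0.00207), and was called at 1 of 3 probe sets. Cenph, a subunit of the constitutive centromere network, read 814, 884 and 688 in iLarge T BMSC, against 5156, 3087 and 3161 in naïve BMSC (log2 fold change -2.22 ± 0.35, adjusted p = 0.00701). Its iLarge T arrays differed little from each other and naïve 1 stood above naïve 3 and 5. Cenpf, a large coiled-coil protein of the outer kinetochore, read 550.4, 1299 and 545 in iLarge T BMSC, against 5478, 3312 and 4257 in naïve BMSC (log2 fold change -2.54 ± 0.42, adjusted p = 0.0092), with iLarge T 4 more than 2-fold above the other iLarge T arrays and a call at 2 of 3 probe sets.

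The remaining subunits of the NDC80 complex differed from Nuf2 in size and certainty. Ndc80 itself was 8.6-fold lower (log2 fold change -3.10 ± 0.49, adjusted p = 0.00753), and its iLarge T 2 signal lay under the 40th percentile of that array. Spc24, which anchors the complex to the inner kinetochore, was 4.19-fold lower (log2 fold change -2.07 ± 0.45, adjusted p = 0.0291), and its call was lost without iLarge T 2, iLarge T 4, iLarge T 6, naïve 3 or naïve 5 (adjusted p between 0.0553 and 0.0929). Its partner Spc25 was not called, with 1549, 2966 and 1647 in iLarge T BMSC, against 12058, 4844 and 3233 in naïve BMSC (log2 fold change -1.55 ± 0.48, adjusted p = 0.111). The groups of Spc25 came close, since iLarge T 4 at 2966 was just below naïve 5 at 3233, and another probe set, above the 40th percentile on 3 arrays, had a log2 fold change of 0.95 (adjusted p = 0.71). Cenpe, a kinesin of the kinetochore corona that carries chromosomes to the spindle equator, had a log2 fold change of -2.72 ± 0.69 and an adjusted p of 0.0555, so it missed the threshold at a fold of 6.57. Its iLarge T signals were widely spread, 196, 1184 and 360.0, with the lowest under the 40th percentile, and without iLarge T 4 it passed (log2 fold change -3.43, adjusted p = 0.0312).

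The spindle checkpoint holds back anaphase until all kinetochores are attached. Of its 6 members, 5 were called lower, 0 higher and 1 was not called, with a median log2 fold change of -2.32. Cdc20, the activator of the anaphase-promoting complex that the checkpoint inhibits, had signals of 7776, 8765 and 4742 in iLarge T BMSC, against 56988, 27769.6 and 29946 in naïve BMSC (log2 fold change -2.40 ± 0.34, adjusted p = 0.00471). It was called at 2 of 3 probe sets. Mad2l1, the checkpoint protein that binds Cdc20, read 3357, 5541 and 3784 in iLarge T BMSC, against 32792, 15070.1 and 17241 in naïve BMSC (log2 fold change -2.31 ± 0.34, adjusted p = 0.00534). The lowest naïve arrays of both genes were 3.17-fold and 2.72-fold above the highest iLarge T array.

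The checkpoint kinases were lower with more spread. Bub1, a kinase that marks centromeric histone H2A, read 430.2, 1524 and 823 in iLarge T BMSC, against 10084, 4089 and 3697 in naïve BMSC (log2 fold change -2.71 ± 0.53, adjusted p = 0.0189), and was called at 1 of 2 probe sets. Naïve 1 was more than 2-fold above both other naïve arrays, and the call was lost without iLarge T 2, iLarge T 6 or naïve 3 (adjusted p between 0.0508 and 0.0723). Bub1b, which encodes BubR1 of the mitotic checkpoint complex, read 608, 1161 and 698 in iLarge T BMSC, against 5174, 2755 and 2496 in naïve BMSC (log2 fold change -2.06 ± 0.42, adjusted p = 0.0217). It was called at 2 of 3 probe sets, and the call at the main probe set was lost without iLarge T 2, iLarge T 6 or naïve 3 (adjusted p between 0.0700 and 0.0794). Ttk, the Mps1 kinase that starts checkpoint signalling, read 788, 608 and 405 in iLarge T BMSC, against 5894, 2416 and 1745 in naïve BMSC (log2 fold change -2.33 ± 0.51, adjusted p = 0.0295). iLarge T 6 was its lowest array, and the call was lost without iLarge T 2, iLarge T 4, iLarge T 6 or naïve 3 (adjusted p between 0.0627 and 0.105).

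Bub3, the WD40 protein that recruits Bub1 and BubR1 to kinetochores, stood apart from the other 51 genes. Its signals were 33228, 20616 and 16144 in iLarge T BMSC, against 44315, 25022 and 20498 in naïve BMSC (log2 fold change -0.35 ± 0.36, adjusted p = 0.701). The groups overlapped, as iLarge T 2 exceeded naïve 3 and 5, and 0 of 5 probe sets were called. A second probe set that was above the 40th percentile on all 6 arrays had a log2 fold change of 0.07 ± 0.36 (adjusted p = 0.956). No array of either group was under the 40th percentile for Bub3.

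Kinases and phosphatases that drive entry into and passage through mitosis were called lower for 7 of 7 members, with 0 higher and a median log2 fold change of -2.85. Melk, a kinase of proliferating progenitor cells, had signals of 644, 1309 and 593 in iLarge T BMSC, against 10286, 6074 and 5068 in naïve BMSC (log2 fold change -3.10 ± 0.41, adjusted p = 0.00328). Pbk, a kinase active in mitosis, read 854, 3179 and 1343 in iLarge T BMSC, against 21045, 10862 and 12838 in naïve BMSC (log2 fold change -3.22 ± 0.47, adjusted p = 0.00491). In both genes naïve 1 was highest and iLarge T 4 stood above the other iLarge T arrays. Nek2, a kinase that separates centrosomes at mitotic entry, showed the largest fold change of the list, with 168, 1136 and 380.2 in iLarge T BMSC, against 5378, 7061 and 6296 in naïve BMSC (log2 fold change -3.90 ± 0.60, adjusted p = 0.00665). This value rested on single iLarge T arrays, being -3.24 without iLarge T 2, whose signal was under the 40th percentile, and -4.62 without iLarge T 4. Nek2 was called at 2 of 4 probe sets, and a probe set above the 40th percentile on 2 arrays had a log2 fold change of 1.28 (adjusted p = 0.515).

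Aurka, the kinase of centrosomes and spindle poles, read 1368, 2417 and 1392 in iLarge T BMSC, against 12118, 4149 and 4393 in naïve BMSC (log2 fold change -1.86 ± 0.45, adjusted p = 0.0447). It had the smallest change of this group, with iLarge T 4 and naïve 3 less than 2-fold apart, and its call was lost without iLarge T 2, iLarge T 4, iLarge T 6, naïve 3 or naïve 5 (adjusted p between 0.069 and 0.149). Plk1, which acts at centrosomes, kinetochores and the midbody, was 5.9-fold lower (log2 fold change -2.56 ± 0.57, adjusted p = 0.0335). Its call was lost without iLarge T 2, iLarge T 6, naïve 3 or naïve 5 (adjusted p between 0.0563 and 0.0974), with a log2 fold change of -1.96 in the first of these. Cdc25c, a phosphatase that activates Cdk1, was 7.23-fold lower (log2 fold change -2.85 ± 0.53, adjusted p = 0.0145) and lost its call without iLarge T 2, iLarge T 6 or naïve 3 (adjusted p between 0.0537 and 0.0622). Cdc25b, which starts that activation at centrosomes, was 5.65-fold lower (log2 fold change -2.50 ± 0.55, adjusted p = 0.0312) and lost its call without iLarge T 2, iLarge T 6, naïve 3 or naïve 5 (adjusted p between 0.0512 and 0.129), with a log2 fold change of -1.87 in the first of these. Unlike most members, Cdc25b was lowest on naïve 1 within the naïve arrays, at 2336 against 3335 and 3982 on naïve 3 and 5. Both phosphatases were under the 40th percentile on iLarge T 2.

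The chromosomal passenger complex corrects faulty attachments at centromeres and then moves to the spindle midzone. All 4 members were called lower, with a median log2 fold change of -2.72. Aurkb, its kinase, had signals of 386, 1032 and 575 in iLarge T BMSC, against 6011, 4275 and 4383 in naïve BMSC (log2 fold change -2.98 ± 0.41, adjusted p = 0.00405). Cdca8, the subunit borealin, read 1556, 1976 and 940.3 in iLarge T BMSC, against 15922, 10968 and 7919 in naïve BMSC (log2 fold change -2.97 ± 0.37, adjusted p = 0.00242). Every probe set of these genes was called, 2 and 3 in number. Incenp, the scaffold that binds and activates Aurkb, read 4237, 4230.1 and 2938 in iLarge T BMSC, against 33815, 14525 and 12137 in naïve BMSC (log2 fold change -2.27 ± 0.38, adjusted p = 0.00958). It was called at 3 of 5 probe sets, and the call at the main probe set was lost without iLarge T 6 (adjusted p = 0.0511). Birc5, the subunit survivin, read 1822, 3665 and 1356 in iLarge T BMSC, against 23559, 9216 and 7197 in naïve BMSC (log2 fold change -2.48 ± 0.49, adjusted p = 0.0198). Naïve 1 was more than 2-fold above the other naïve arrays for both Incenp and Birc5, and the Birc5 call was lost without iLarge T 2, iLarge T 6 or naïve 3 (adjusted p between 0.0518 and 0.0876).

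Kinesins move along or depolymerize microtubules. Of 8 kinesin members, 6 were called lower, 0 higher and 2 were not called, with a median log2 fold change of -2.76. Kif11, the Eg5 motor that pushes spindle poles apart, had signals of 547, 752 and 453 in iLarge T BMSC, against 5415, 4569 and 3668 in naïve BMSC (log2 fold change -2.98 ± 0.35, adjusted p = 0.00198). Its lowest naïve array was 4.88-fold above the highest iLarge T array, and 3 of 3 probe sets were called. Kif20b, a kinesin of late cytokinesis, read 799.8, 901 and 504 in iLarge T BMSC, against 6422, 5107 and 3845 in naïve BMSC (log2 fold change -2.81 ± 0.36, adjusted p = 0.0029), with a call at 2 of 4 probe sets. Kif22, a chromosome-binding motor that moves chromosome arms towards the equator, read 3953, 5866 and 4107 in iLarge T BMSC, against 21779.9, 15027 and 16902 in naïve BMSC (log2 fold change -1.95 ± 0.27, adjusted p = 0.00378). Its standard error was the smallest of the list, with 3 of 3 probe sets called. Kif2c, which encodes the microtubule depolymerase MCAK, read 626, 1453 and 451 in iLarge T BMSC, against 7825, 4952 and 5055 in naïve BMSC (log2 fold change -2.97 ± 0.45, adjusted p = 0.00623). iLarge T 4 was more than 2-fold above the other iLarge T arrays, and 3 of 4 probe sets were called.

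Motors of the central spindle were also lower. Kif20a, which brings the passenger complex to the midzone, was 6.55-fold lower (log2 fold change -2.71 ± 0.43, adjusted p = 0.0076). Kif23, the motor subunit of centralspindlin, read 1133, 1754 and 813 in iLarge T BMSC, against 11489, 3312 and 4296 in naïve BMSC (log2 fold change -2.22 ± 0.49, adjusted p = 0.0312). Naïve 1 was more than 2-fold above naïve 3 and 5, and the call was lost without iLarge T 2, iLarge T 4, iLarge T 6 or naïve 5 (adjusted p between 0.059 and 0.119). A second probe set of Kif23 was called at -3.02 (adjusted p = 0.0104), and the third, near background on 5 arrays, had a log2 fold change of 2.53 (adjusted p = 0.253).

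The kinesins without a call were the chromokinesin Kif4 and Kif18a, which limits the movement of chromosomes at the metaphase plate. Kif4 read 62.3, 1113 and 481 in iLarge T BMSC, against 3684, 2357 and 2944 in naïve BMSC (log2 fold change -3.19 ± 0.88, adjusted p = 0.075). Its standard error was the largest of the list, and it passed without iLarge T 4 (log2 fold change -4.09, adjusted p = 0.044), while without iLarge T 2 the change was -2.01 (adjusted p = 0.0687). Kif18a read 437, 516 and 218 in iLarge T BMSC, against 2051, 1174 and 949 in naïve BMSC (log2 fold change -1.85 ± 0.54, adjusted p = 0.091). Its groups did not overlap, and its other probe set was near background on all 6 arrays with a log2 fold change of 0.18 (adjusted p = 0.971).

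Proteins that bind and organize spindle microtubules were called lower for 4 of 4 members, with a median log2 fold change of -2.64. Nusap1, which bundles microtubules near chromosomes, had signals of 1075, 2066 and 1266 in iLarge T BMSC, against 17481, 13388 and 11967 in naïve BMSC (log2 fold change -3.32 ± 0.32, adjusted p = 0.000852), a 9.99-fold difference. Its second probe set was not called. Tacc3, which with clathrin and ch-TOG crosslinks kinetochore fibres, read 558, 1077 and 711 in iLarge T BMSC, against 5922, 4182 and 4956 in naïve BMSC (log2 fold change -2.72 ± 0.35, adjusted p = 0.00297), with a call at 1 of 3 probe sets. Tpx2, the activator of Aurka on the spindle, read 1352, 3706 and 1532 in iLarge T BMSC, against 14747, 9392 and 10098 in naïve BMSC (log2 fold change -2.50 ± 0.40, adjusted p = 0.0076), with a call at 2 of 4 probe sets. In each of these genes the lowest naïve array was at least 2-fold above the highest iLarge T array. Hmmr, a spindle-pole protein also known as a hyaluronan receptor, read 777, 2408 and 779.8 in iLarge T BMSC, against 10652, 5912 and 4696 in naïve BMSC (log2 fold change -2.55 ± 0.49, adjusted p = 0.0174). iLarge T 4 was more than 2-fold above the other iLarge T arrays, and although 4 of 5 probe sets were called, the call at the main probe set was lost without iLarge T 2, iLarge T 6 or naïve 3 (adjusted p between 0.0585 and 0.0781).

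Cytokinesis members were called lower for 4 of 4, with a median log2 fold change of -2.88, and none of these calls was lost when any array was left out. Racgap1, the GTPase-activating subunit of centralspindlin, had the smallest adjusted p of the list, with signals of 1328, 1907 and 1281 in iLarge T BMSC, against 14536, 12072 and 10738 in naïve BMSC (log2 fold change -3.06 ± 0.28, adjusted p = 0.000713). The signals within each group were close, the lowest naïve array was 5.63-fold above the highest iLarge T array, and 2 of 3 probe sets were called. Anln, the scaffold that ties actin and myosin together in the contractile ring, read 2361, 5579 and 2805 in iLarge T BMSC, against 40951, 26975 and 26596 in naïve BMSC (log2 fold change -3.21 ± 0.35, adjusted p = 0.00129), and both of its probe sets were called. Ect2, the exchange factor that activates RhoA at the cleavage site, read 1033, 1897 and 1098 in iLarge T BMSC, against 11020.5, 7628 and 7148 in naïve BMSC (log2 fold change -2.71 ± 0.33, adjusted p = 0.00239). Prc1, which crosslinks antiparallel microtubules of the midzone, read 971, 2329.5 and 1593 in iLarge T BMSC, against 13578, 6923 and 7333 in naïve BMSC (log2 fold change -2.53 ± 0.39, adjusted p = 0.00701). iLarge T 4 was the highest iLarge T array and naïve 1 the highest naïve array in each of these genes.

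Condensin I compacts mitotic chromosomes, and topoisomerase II alpha untangles sister DNA. All 6 members were called lower, with a median log2 fold change of -2.48. Top2a, the topoisomerase, had signals of 1045, 3516 and 1995 in iLarge T BMSC, against 21308, 12085 and 13697 in naïve BMSC (log2 fold change -2.97 ± 0.43, adjusted p = 0.00484), with a call at 1 of 3 probe sets. Smc2, an ATPase subunit shared by both condensins, read 3480.2, 5073 and 2536 in iLarge T BMSC, against 20767, 12643 and 12474 in naïve BMSC (log2 fold change -2.06 ± 0.33, adjusted p = 0.0076). It was called at 1 of 5 probe sets. Ncapd2, a condensin I subunit, read 475, 1385 and 597 in iLarge T BMSC, against 4020.2, 4352 and 4433 in naïve BMSC (log2 fold change -2.54 ± 0.43, adjusted p = 0.00946). Its naïve arrays were the most alike of this group and did not rank naïve 1 first, whereas iLarge T 4 stood more than 2-fold above the other iLarge T arrays. Ncapg, a second condensin I subunit, read 340.3, 1021 and 393 in iLarge T BMSC, against 4079.7, 2506 and 2065 in naïve BMSC (log2 fold change -2.42 ± 0.50, adjusted p = 0.0245), and both of its probe sets were called, although the call at the main one was lost without iLarge T 2, iLarge T 6, naïve 3 or naïve 5 (adjusted p between 0.0557 and 0.0903). Smc4, the other ATPase, was 7.66-fold lower (log2 fold change -2.94 ± 0.51, adjusted p = 0.0109). Ncaph, the kleisin that closes the ring, was 5.03-fold lower (log2 fold change -2.33 ± 0.40, adjusted p = 0.0103). Every probe set of Smc4 and Ncaph was called, 3 and 2 in number.

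Regulators of anaphase and of sister cohesion were called lower for 4 of 5 members, with 0 higher and a median log2 fold change of -2.45. Ube2c, the ubiquitin-conjugating enzyme of the anaphase-promoting complex, had signals of 2166, 4525 and 2345 in iLarge T BMSC, against 28686, 13709 and 11999.6 in naïve BMSC (log2 fold change -2.56 ± 0.40, adjusted p = 0.00693). Cdca5, which encodes sororin, the protector of cohesin, read 837, 1859 and 830.4 in iLarge T BMSC, against 10627, 4810.0 and 4143 in naïve BMSC (log2 fold change -2.45 ± 0.45, adjusted p = 0.0146), and its call was lost without iLarge T 2 or iLarge T 6 (adjusted p between 0.0681 and 0.0682). Cdca3, an F-box protein that triggers mitotic entry, read 1092, 3189 and 1211 in iLarge T BMSC, against 20429.5, 6717 and 7243 in naïve BMSC (log2 fold change -2.63 ± 0.52, adjusted p = 0.0195). Naïve 1 was more than 2-fold above both other naïve arrays for Cdca5 and Cdca3, and the Cdca3 call was lost without iLarge T 2 or iLarge T 6 (adjusted p between 0.0886 and 0.089). Of its 3 probe sets, 1 was called and another had a log2 fold change of 1.26 (adjusted p = 0.623).

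Securin and separase, which act on each other, had the smaller or less certain changes of this group. Pttg1, securin, read 30066, 28327 and 21723 in iLarge T BMSC, against 100566, 57946 and 49048 in naïve BMSC (log2 fold change -1.32 ± 0.30, adjusted p = 0.0381). At 2.49-fold lower it had the smallest change of any called member, and its call was lost without iLarge T 2, iLarge T 4, iLarge T 6, naïve 3 or naïve 5 (adjusted p between 0.0524 and 0.149). Espl1, the protease separase, was not called, with 301, 1213 and 305 in iLarge T BMSC, against 2316, 1756 and 1982 in naïve BMSC (log2 fold change -2.06 ± 0.57, adjusted p = 0.0761). iLarge T 2 and 6 were alike and iLarge T 4 was close to the naïve arrays, and without iLarge T 4 the gene passed (log2 fold change -2.73, adjusted p = 0.0249).

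**Figure D3:**
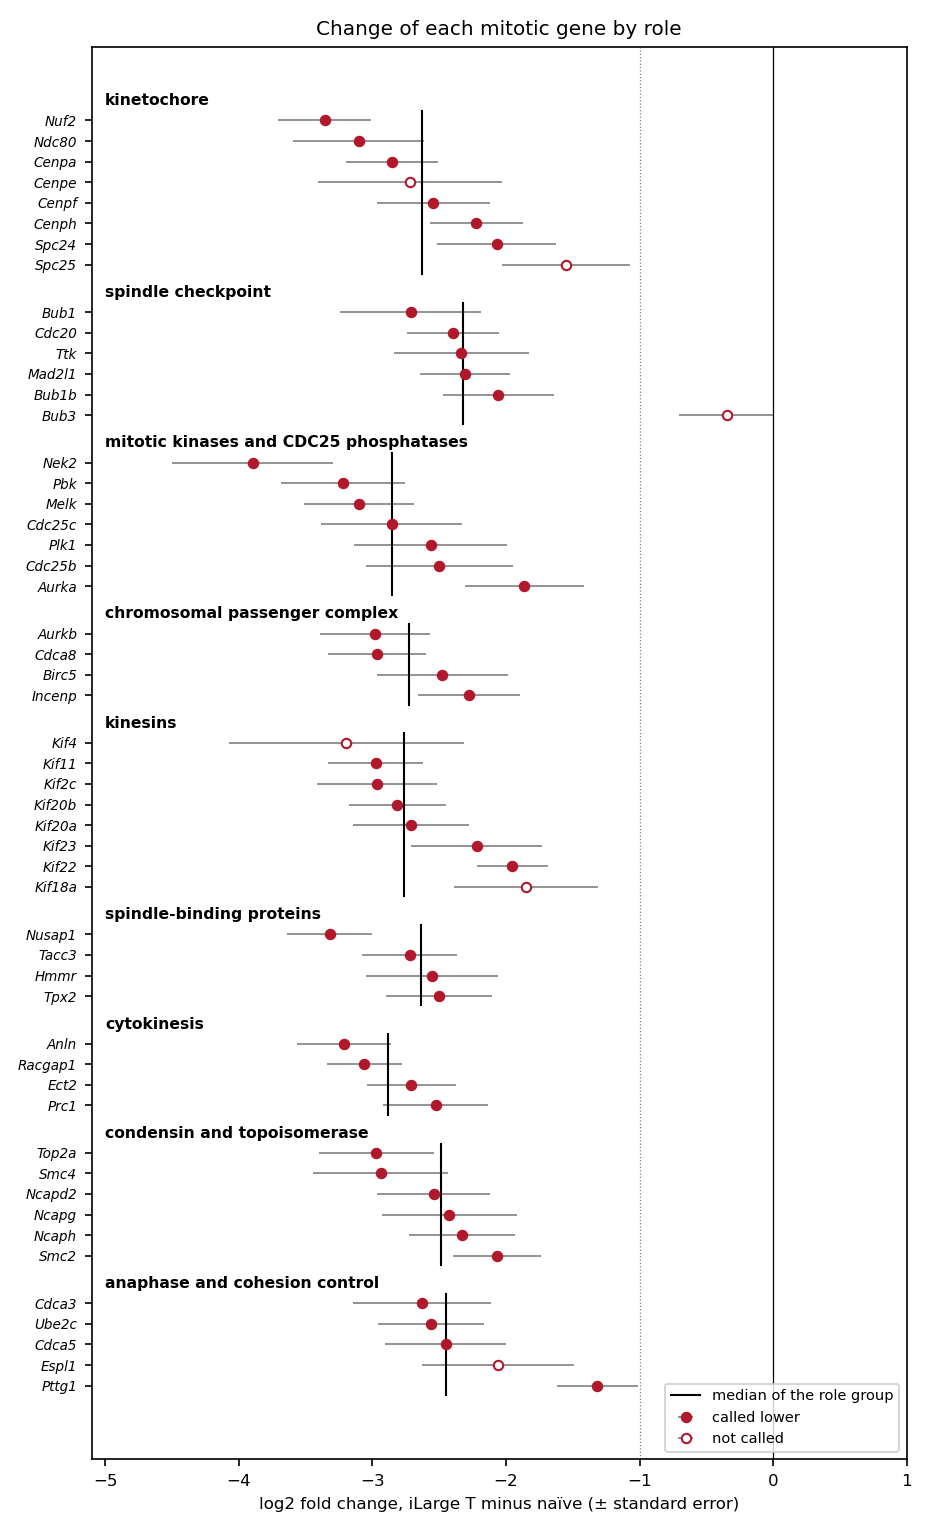
Change of each mitotic gene by role. Points give the log2 fold change, iLarge T minus naïve, with its standard error from limma as a bar, filled for genes called lower and open for genes not called; black lines are the medians of the role groups and the dotted line is 2-fold. All points lie left of 0, and the medians of the 9 groups lie between -2.88 and -2.32.

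The medians of the 9 role groups spanned a range of 0.56. The lowest was that of cytokinesis (-2.88) and the highest that of the spindle checkpoint (-2.32). Within a group, members differed by 0.69 in cytokinesis up to 2.37 in the spindle checkpoint, where Bub3 set the range. The shares called lower were 6 of 8 for kinetochore proteins, 5 of 6 for the spindle checkpoint, 6 of 8 for kinesins, 4 of 4 for cytokinesis and 6 of 6 for condensin and topoisomerase. Differences between the role groups were not tested.

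Most members had further probe sets. The 52 genes were covered by 123 probe sets, of which 77 were called lower, 0 higher, and 117 had a negative log2 fold change, where 2.27% of all probe sets were called lower. In 37 genes with several probe sets, 11 had every one called lower and 22 had probe sets that differed in call. Probe sets pointed in different directions for 6 genes (Bub3, Cdca3, Kif18a, Kif23, Nek2 and Spc25). Brightness went with these differences. Of the 27 unused probe sets above the 40th percentile on all 6 arrays, 22 were called lower, against 9 of the 44 other unused ones. Among the 15 above it on fewer than 3 arrays 0 were called. A probe set above it on every naïve array cannot be in that class, so this 0 says little. Of the probe sets used, 7 were of the type marked x_at and 6 of the type marked s_at, which can bind transcripts of more than 1 gene.

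**Figure D4:**
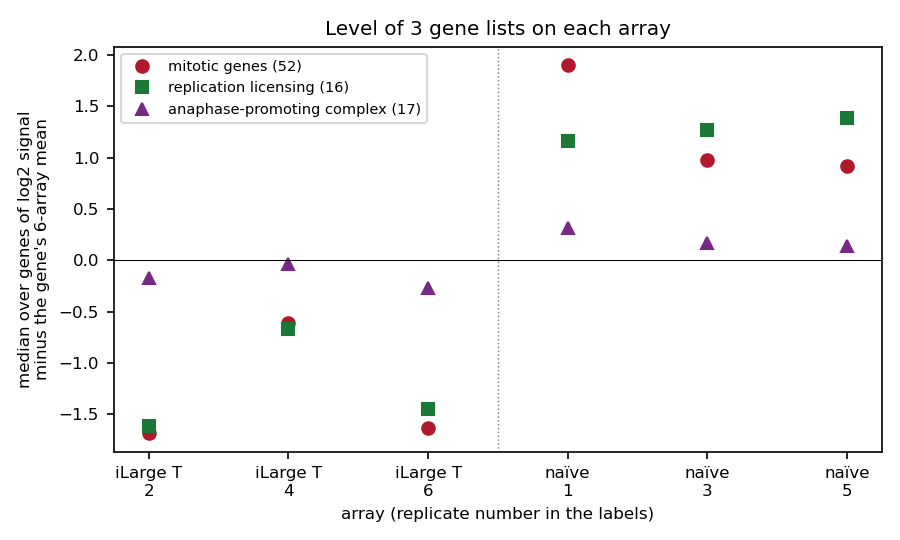
Level of 3 gene lists on each array. The vertical axis is the median, over the genes of a list, of the log2 signal minus the mean of that gene over the 6 arrays, and each symbol is 1 array. The mitotic genes are at -1.68, -0.61 and -1.64 on iLarge T 2, 4 and 6 and at 1.90, 0.98 and 0.92 on naïve 1, 3 and 5, and naïve 1 is the highest array for mitotic genes and not for replication licensing genes.

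Replication licensing genes, which load the MCM helicase at origins before S phase, were the nearest other group of cell cycle genes. Of 16 such genes, 10 were called lower and 0 higher, with a median log2 fold change of -2.71 beside -2.56 for the mitotic genes. Cdt1, the loading factor, had signals of 4378, 5720.1 and 3221 in iLarge T BMSC, against 40125, 50297 and 50429 in naïve BMSC (log2 fold change -3.43 ± 0.27, adjusted p = 0.000459). Gmnn, its inhibitor geminin, read 1554, 2111 and 1327 in iLarge T BMSC, against 13954, 16362 and 17989 in naïve BMSC (log2 fold change -3.29 ± 0.27, adjusted p = 0.000531). Mcm5, a helicase subunit, read 1882, 4442 and 2101 in iLarge T BMSC, against 41388, 31462 and 32819 in naïve BMSC (log2 fold change -3.75 ± 0.34, adjusted p = 0.000675). The lists differed in how the naïve arrays ranked. Naïve 1 was the highest naïve array for 8 of 16 licensing genes and the lowest for the other 8, and among the MCM2 to MCM7 subunits it was lowest for 5 of 6, with a median of -0.58 against naïve 3 and 5, whereas it was highest for 49 of 52 mitotic genes. iLarge T 4 was the highest iLarge T array for 13 of 16 licensing genes. The difference between the lists was not tested.

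**Figure D5:**
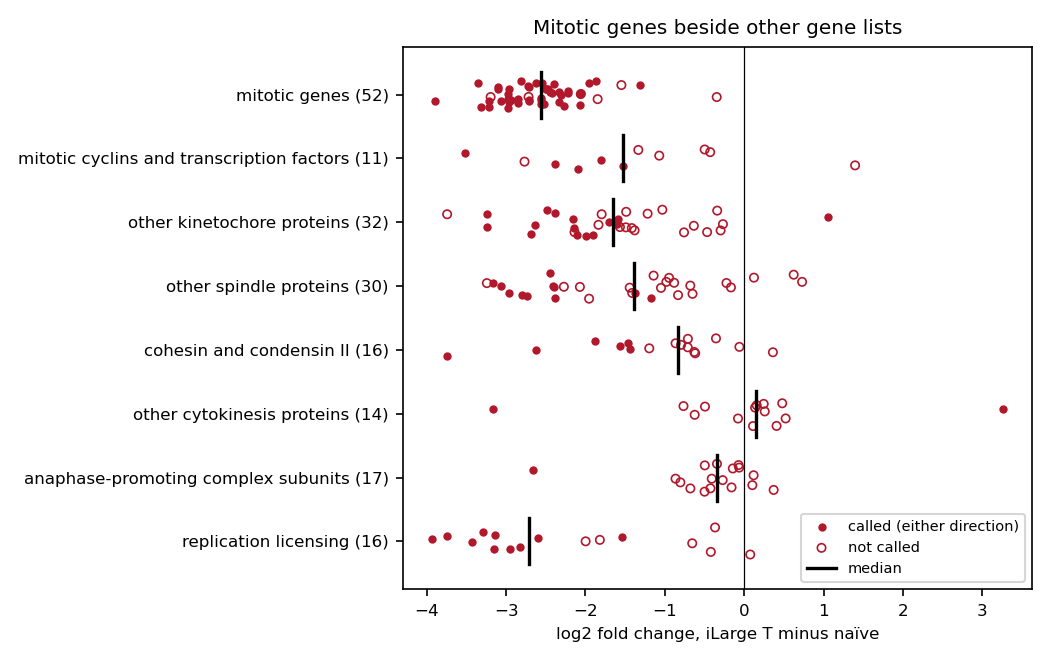
Mitotic genes beside other gene lists. Each symbol is a gene at its log2 fold change, iLarge T minus naïve, filled where it was called in either direction and open where it was not, with the number of genes in brackets and the median of each list as a black line; symbols are spread vertically within a row for legibility. The median is -2.56 for the mitotic genes, -2.71 for replication licensing, -0.34 for subunits of the anaphase-promoting complex and 0.15 for other cytokinesis proteins.

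Other mitotic genes, listed from general knowledge in 6 lists, were called lower in part. Of 120 measured, 38 were called lower, 2 higher and 80 were not called, with a median log2 fold change of -1.04. Among mitotic cyclins and transcription factors 5 of 11 were called lower (median -1.53). Ccnb2, cyclin B2, had signals of 933, 2438 and 1616 in iLarge T BMSC, against 18523, 18636 and 15986 in naïve BMSC (log2 fold change -3.52 ± 0.35, adjusted p = 0.000969). Cks2, a Cdk1-binding subunit, read 12033, 11083 and 6369.8 in iLarge T BMSC, against 44027, 30868 and 26316 in naïve BMSC (log2 fold change -1.80 ± 0.31, adjusted p = 0.0109). Cdk1, the kinase that cyclin B activates, read 4298, 7757 and 4132 in iLarge T BMSC, against 39243, 16526 and 16742 in naïve BMSC (log2 fold change -2.10 ± 0.39, adjusted p = 0.0145), and its call was lost without iLarge T 2 or iLarge T 6 (adjusted p between 0.0702 and 0.0731). Among transcription factors upstream of mitotic genes, Foxm1, a forkhead activator of G2 and mitotic genes, read 929, 822 and 468 in iLarge T BMSC, against 1762, 1564 and 1202 in naïve BMSC (log2 fold change -1.07 ± 0.43, adjusted p = 0.221). Mybl2, which encodes B-MYB, read 393, 49.4 and 236 in iLarge T BMSC, against 1435, 949 and 1062 in naïve BMSC (log2 fold change -2.77 ± 0.79, adjusted p = 0.0863). Neither was called, though their groups did not overlap. Without single arrays the change of Mybl2 lay between -3.39 (without iLarge T 2) and -1.89 (without iLarge T 4). Ccnb1 shares its probe sets with other symbols and is not analysed here.

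Among other kinetochore proteins 14 of 32 were called lower and 1 higher (median -1.65). Cenpk, of the constitutive centromere network, read 1313, 1443 and 696 in iLarge T BMSC, against 8513, 11852 and 11138 in naïve BMSC (log2 fold change -3.25 ± 0.34, adjusted p = 0.00116). Sgo1, shugoshin, which protects centromeric cohesin, read 289, 650.1 and 539 in iLarge T BMSC, against 4734, 4167 and 4301 in naïve BMSC (log2 fold change -3.24 ± 0.39, adjusted p = 0.00228). Cenpp, a further subunit of the centromere network, read 492, 885 and 794 in iLarge T BMSC, against 5177, 4426 and 3571 in naïve BMSC (log2 fold change -2.63 ± 0.36, adjusted p = 0.00374). None of these overlapped between groups. Zwint, which links the outer kinetochore to the checkpoint, ran the other way, with 28642, 28475 and 23817 in iLarge T BMSC, against 15222, 13218 and 10769.9 in naïve BMSC (log2 fold change 1.05 ± 0.23, adjusted p = 0.033). It was called higher at 4 of 7 probe sets, and all 7 had a positive log2 fold change. The call at the main probe set, which is the brightest, was lost without iLarge T 2, iLarge T 4, iLarge T 6, naïve 3 or naïve 5 (adjusted p between 0.0758 and 0.168).

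Other spindle proteins were called lower for 11 of 30 (median -1.39). Stmn1, the tubulin-binding protein stathmin, read 4529, 9051 and 7362 in iLarge T BMSC, against 47462, 46137 and 40862 in naïve BMSC (log2 fold change -2.74 ± 0.29, adjusted p = 0.00109). Dlgap5, a kinetochore fibre protein, read 506, 767 and 339 in iLarge T BMSC, against 7204, 3631 and 3638 in naïve BMSC (log2 fold change -3.17 ± 0.44, adjusted p = 0.00396). Ckap2, a spindle protein, read 1985, 3928 and 2191 in iLarge T BMSC, against 42939, 14032 and 16362 in naïve BMSC (log2 fold change -3.06 ± 0.44, adjusted p = 0.00471). In the cohesin and condensin II list 6 of 16 were called lower (median -0.83). Esco2, the acetyltransferase that establishes cohesion in S phase, read 171, 337 and 182 in iLarge T BMSC, against 4154, 2675 and 2272 in naïve BMSC (log2 fold change -3.75 ± 0.48, adjusted p = 0.00287). Its signals on iLarge T 2 and 6 were under the 40th percentile of those arrays, so its level there is only bounded by background. Ncapg2, a condensin II subunit, read 663, 2164 and 1192 in iLarge T BMSC, against 5789.8, 8411 and 8300.3 in naïve BMSC (log2 fold change -2.63 ± 0.42, adjusted p = 0.00804). Rad21, the cohesin kleisin, changed less, with 9879, 10927 and 14358 in iLarge T BMSC, against 25763, 39414 and 39868 in naïve BMSC (log2 fold change -1.57 ± 0.27, adjusted p = 0.0101), and lost its call without iLarge T 4, naïve 3 or naïve 5 (adjusted p between 0.0521 and 0.0600).

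The remaining lists had the medians closest to 0. Subunits and partners of the anaphase-promoting complex were called lower for 1 of 17 (median -0.34), although its activator Cdc20 and its enzyme Ube2c were among the members called lower. The one was Fbxo5, the inhibitor Emi1, which read 1113, 1942 and 636 in iLarge T BMSC, against 14389, 5365 and 4459 in naïve BMSC (log2 fold change -2.66 ± 0.52, adjusted p = 0.019) and lost its call without iLarge T 2 or iLarge T 6 (adjusted p between 0.0748 and 0.0767). Among other cytokinesis proteins, which include septins and actomyosin regulators used outside mitosis, 1 of 14 was called lower and 1 higher (median 0.15). Cep55, which recruits the abscission machinery to the midbody, read 1514, 2796 and 1045 in iLarge T BMSC, against 17462, 13383 and 13551 in naïve BMSC (log2 fold change -3.16 ± 0.36, adjusted p = 0.00164). Septin9, a septin of the cytoskeleton, was higher on its single probe set, with 30398, 19136 and 28099.5 in iLarge T BMSC, against 2627, 2695 and 2598 in naïve BMSC (log2 fold change 3.27 ± 0.26, adjusted p = 0.000459). The other 12 genes of that list were not called.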

How the data were processed

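Expression was measured on 6 Affymetrix Mouse Genome arrays, 3 of iLarge T and 3 of naïve Large T BMSC, each from pooled RNA. The deposited values are intensity signals on a linear scale that the authors made with the MAS5 algorithm, for which their methods name GeneChip Operating Software 1.2. Each array has a trimmed mean signal of 2499, and median signals were 450.1, 415 and 315 on the iLarge T arrays and 413.5, 308 and 308 on the naïve arrays. MAS5 reads each array alone, and the table used here gives no detection calls, so signals under the 40th percentile of their array (183 to 299.6) were taken as near background. Precision is limited by having 3 arrays a group, and p-values measure the spread between pools.

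Log2 signals of 45037 probe sets, which leaves out 64 controls of 45101, were fitted in R 4.3.3 by limma 3.58.1. Its eBayes step took an intensity trend, and Benjamini-Hochberg adjustment ran over these 45037. A call needed an adjusted p under 0.05 and at least a 2-fold change. Errors are limma's standard errors. Of these probe sets, 34945 had 1 gene symbol in the platform annotation, 932 had several and 9160 had none listed, and the last 2 kinds name no gene here. The probe set of a gene with the highest mean log2 signal stands for it. Python 3.11.15, numpy 2.4.6, pandas 2.3.3 and matplotlib 3.10.9 were used for counts and figures. The limma step was tested on simulated data.

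The members, gene lists and tests were chosen with earlier results of these data known. Values per array are given, in each of 9 role groups, for up to 3 called members with the smallest adjusted p and for the member with the largest, and for members whose probe sets differ in call or sign. From each other list the 3 called genes with the smallest adjusted p are named, and Foxm1, Mybl2, Ccnb1 and Cdk1 whatever their values. Promoters come from a RefSeq table (GRCm38.p6), and those printed have the smallest adjusted p among such members with a CHR, none from chromosome 18. Lists are described by counts and medians, with no test. Alternatives were other tests, normalizations, filters, floors, pseudocounts, probe set choices, fold thresholds and leaving out each array. The spike-in pairs as a block were added after seeing the data. No other sample columns were present.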

Additional observations from a re-analysis of the deposited data

How the results depend on the processing

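The direction of all 52 mitotic genes and the count of 0 called higher held under every setting run, except that reading each gene from its most variable probe set turned the uncalled Spc25 to 0.95 and Kif18a to 0.18. Several settings keep the same difference of log2 group means and so could not change a direction. They are the t-test on log2 values, limma without the trend, the fold thresholds, the filter of dim probe sets and the block. The number called lower, 46 of 52, was 0 by the methods' t-test of log2 values and 0 by that of linear signals (49 and 37 at an unadjusted p under 0.05; lowest adjusted p 0.0575 and 0.0669), and 4 with limma without the intensity trend (51 unadjusted), where 48 of all genes were called lower against 593. These tests estimate the spread from 3 arrays a group or share it without regard to signal. In the same order, related mitotic genes gave 1, 5 and 4 lower and 0, 0 and 1 higher, and replication licensing genes 0, 1 and 5 lower. Other settings left between 32 (mean of the probe sets) and 51 (signals raised to the 40th percentile) mitotic genes called lower. The shares of all genes called lower in these settings were 2.95% and 4.67%. With the most variable probe set 1 related gene was called higher. At 4-fold 25 related genes were called lower and 1 higher, where 1.85% of all genes were called lower. Leaving out each array in turn gave 30 to 46 mitotic, 21 to 44 related and 8 to 10 licensing genes lower, 0 mitotic and 1 to 3 related genes higher, and a median log2 fold change of the mitotic genes of -2.98 to -2.24. The share of all genes called lower also moved with the array left out, from 1.28% without naïve 3 to 6.67% without naïve 1. Of the 46 calls, 30 held without any one array and 16 were lost without at least 1. The arrays of the groups carry different numbers in the labels, which therefore pair no arrays. A block for the pairs taken from the bioC to bioB ratio, chosen after seeing the data, left 46 mitotic and 46 related genes called lower. With it 4.86% of all genes were called lower. Signals near background on iLarge T 2, for 6 mitotic genes and the related Sgo1, on iLarge T 4 for Mybl2 and on iLarge T 2 and 6 for Esco2 limit how large their changes can be measured. Of the related and licensing genes, only those with values given above are covered here. Others, Cenpi and Cdc6 among them, were also near background on iLarge T 2.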
